A study of Caenorhabditis elegans with 14 samples.

Results

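Old worms of CB4856, a wild strain isolated in Hawaii, were set against old worms of N2, the laboratory strain, over every worm element on the array. The 5 arrays of this age (t3, 214 hr) were taken by their age label alone, out of 14 arrays in all. Each array was hybridized with RNA of both strains in different dyes, so each gave 1 ratio of CB4856 over N2 per element. Both strains were wild type, were synchronized as eggs by bleaching, grew on E. coli OP50 at a constant temperature, and were labeled old (senescent) at harvest. Between the harvests of the juvenile (t1, 40 hr, 5 arrays) and the reproductive worms (t2, 96 hr, 4 arrays), the dishes kept for later ages passed through a period on FUDR (fluorodeoxyuridine), which stops reproduction. Both strains of t2 and t3 therefore carried that treatment and t1 did not. CB4856 was labeled with Cy5 on replicates 1 to 3 and with Cy3 on replicates 4 and 5. Neither the labels nor the methods say whether a dye exchange used the RNA of an earlier array, so p-values treat the 5 arrays as independent and may measure a spread that is partly technical.

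C. elegans is used to study aging because it lives briefly and its adult body is built of cells that no longer divide. With age its muscle loses order, its cuticle thickens, and its intestine and gonad degenerate, while insulin signaling, defense, and protein turnover genes are among those known to set how long it lives. CB4856 is among the wild strains most unlike N2 in DNA sequence, and the differences are denser on chromosome arms, where large families of F-box and MATH genes lie. The strains also differ in mean lifespan, and therefore strain and physiological age at a given hour cannot be told apart. The 60-mer probes were designed on N2, so weaker binding of CB4856 transcripts and a lower transcript level cannot be told apart for genes lower in CB4856. RNA came from whole worms, in which fewer cells of a type and less RNA per cell cannot be told apart.

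The median spot intensity on the t3 arrays was 201 to 271 for CB4856 and 219 to 303 for N2, over median local backgrounds of 163 to 176. An element counted as above background where its mean exceeded the local background by 2 SD, which 44.1% to 60.7% of elements did in CB4856 and 50.3% to 63% in N2. Replicate 3 stood apart, with ratio correlations across elements of 0.16 to 0.439 with the other arrays, whereas the other pairs reached 0.511 to 0.69. Levels below are normalized intensities in scanner units after background correction, to which an offset of 50 was added. The reading of a spot without signal therefore lay above 0, and it differed between arrays. An element of bath-28, above background in CB4856 on no t3 array, read 106 there on replicate 1 and 46.6 on replicate 4. Ratios of dim spots thus depend on the background. Where a strain was above background on no t3 array, the fold is given as at least a value, taken from normalized intensities without background subtraction, which is open to a dye bias because the orientations were not balanced. Levels of different elements were not compared, since each probe has its own affinity.

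In old worms 1391 of 22490 elements (6.18%) differed between the strains at a Benjamini-Hochberg adjusted p under 0.05 in the limma fit. Of these, 548 elements (2.44%) were higher in CB4856, for 530 genes, and 843 elements (3.75%) were lower, for 775 genes. The direction was the same on all 5 arrays for 1201 of the called elements and on 4 arrays for 187. Most differences were small, with a median absolute log2 ratio of 0.69, whereas the median of all elements was 0.003. Among the larger ones, 112 elements were higher and 281 lower by more than 1 on the log2 scale, and 16 were higher and 54 lower by more than 2. Lower calls thus outnumbered higher calls more strongly as the difference grew. The number of calls depended on how the arrays were used. The 5 t3 arrays fitted alone gave 82 higher and 186 lower elements, and quantile normalization of single channels gave 354 and 415. Without replicate 3 the fit gave 665 and 1141, but without replicate 2 it gave 244 and 431, without replicate 4 191 and 358, and without replicate 5 296 and 482. With each array centered on its median in place of loess, 378 were higher and 1115 lower. None of the 1391 elements turned its direction under any of these settings. Each setting reused t3 arrays by which the elements had been called, so this is not separate support for the calls.

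Some elements gave a signal in 1 strain and none in the other. CB4856 was above background on 0 of 5 arrays and N2 on 5 of 5 for 107 elements, of which 94 were called lower. Of the 107, 43 lay on chromosome II and 21 on V, which hold 3786 and 5155 of the 21326 elements with a position. The opposite pattern of detection held for 3 elements, ZK402.5 (at least 1.94-fold, adjusted p = 0.00033), C39B5.10 (at least 1.73-fold, adjusted p = 0.0011), and T26H5.2 (at least 1.58-fold, adjusted p = 0.0014). Both strains were above background on every t3 array for 8681 elements (38.6%), and here 290 were higher and 307 lower. This set leaves out the 94 lower calls without a signal in CB4856 by its own rule, so its split between the directions is partly fixed by the filter.

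The gene with the lowest ratio was puf-6, whose protein binds mRNAs in the manner of Pumilio and acts in the germline. It measured 128, 105, 72.9, 66.2, and 115 in CB4856 on replicates 1 to 5, against 2619, 1706, 1861, 3096, and 2830 in N2. The strains did not overlap, and CB4856 was above background on all 5 arrays (log2 ratio -4.66, standard error 0.2, adjusted p = 3.7e-08). It lies on chromosome II from 13039792 to 13043445 (assembly WBcel235, as for all positions here). The homeobox gene duxl-1, also on II, read 89.3, 72.3, 70.1, 55.1, and 85.6 in CB4856 and 749, 989, 3137, 1456, and 1842 in N2. Its N2 level was highest on replicate 3, while CB4856 was above background on 2 arrays (log2 ratio -4.28, standard error 0.31, adjusted p = 3.4e-06). pud-4, named as a protein upregulated in daf-2 insulin receptor mutants, had levels of 92.4, 71.6, 52.3, 48.6, and 79.2 in CB4856 against 1072, 1446, 809, 1432, and 1685 in N2. CB4856 was above background on a single array (log2 ratio -4.23, standard error 0.38, adjusted p = 2e-05), so the size of this difference rests on how background was handled. F10E7.2 was lower on both of its elements, by log2 ratios of -3.98 and -3.36 (adjusted p = 3.7e-08 and 2e-07). All 3 elements of F59E12.6 were lower, 1 of them at -2.94 with CB4856 above background on each array and the others by at least 1.98-fold and at least 1.76-fold (adjusted p = 1e-05 and 0.00015).

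Other low genes came from families that turn over proteins or encode small nematode peptides. fbxa-206, an F-box gene on V, was at least 4.98-fold lower in CB4856 (adjusted p = 1.1e-07), with 96.7, 65.5, 51.1, 51.3, and 81.6 in CB4856 against 914, 808, 520, 734, and 593 in N2. bath-28 and bath-5, both with BTB and MATH domains and both on II, were at least 4.59-fold and at least 4.11-fold lower (adjusted p = 2.1e-06 and 4e-07). CB4856 gave no signal above background for these 3 elements. nspd-7, a nematode-specific peptide gene of the sperm list, had a log2 ratio of -3.40 (adjusted p = 9.5e-06), and nspa-8, of a sister family, one of -3.37 (adjusted p = 3.1e-05). F54E2.1, F19B2.5, F54D10.7, and C13G5.2 completed the group, with log2 ratios between -4.01 and -3.23, and CB4856 was above background on 1 to 3 arrays for them.

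spp-9, for a saposin-like protein of a family with antimicrobial members, differed from the rest in its spread. It measured between 88.1 and 230 in CB4856 on the 5 arrays, against 8044, 8104, 254, 450, and 418 in N2. N2 exceeded CB4856 on every array, but on replicates 1 and 2 by far more than on the other three. The log2 ratio was -3.25 (standard error 0.48, adjusted p = 0.0014), it missed the threshold with the t3 arrays alone (adjusted p = 0.11), and N2 had saturated pixels on 1 array. Its relative spp-12 behaved likewise, with 112, 111, 83.8, 95.6, and 74.2 in CB4856 and 1795, 3605, 185, 136, and 122 in N2. The strains did not overlap for spp-12 either, and again N2 was far brighter on replicates 1 and 2 (log2 ratio -2.17, standard error 0.47, adjusted p = 0.017, lost without replicate 1).

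**Figure D1:**
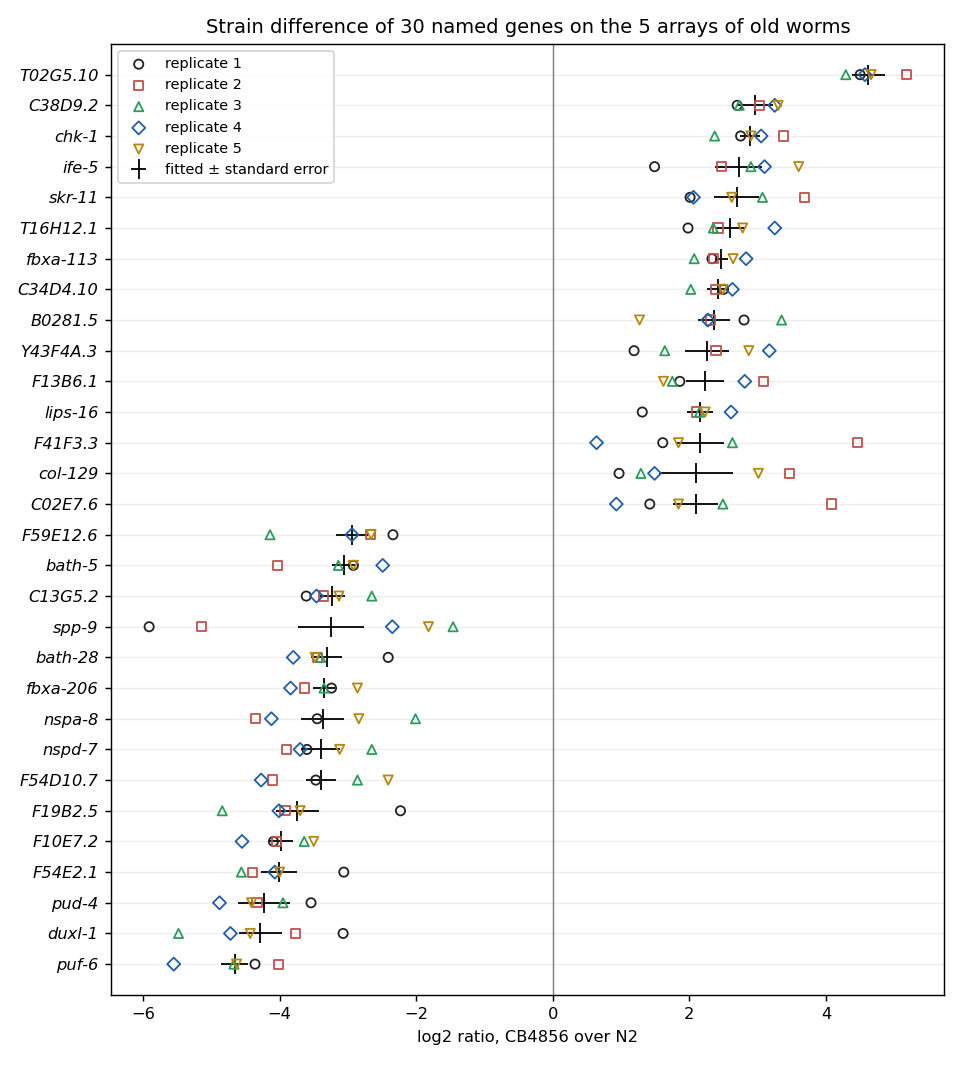
Log2 ratios of CB4856 over N2 (horizontal axis) for the 15 genes highest and the 15 lowest in CB4856 in old worms, with 1 point per array and replicate. The spread of the points differs between genes. Those of fbxa-113 lie between 2.07 and 2.83 and those of F19B2.5 between -4.84 and -2.23. The points of spp-9, F41F3.3, and C02E7.6 are spread over more than 3 log2 units.

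At the other end stood T02G5.10, for which CB4856 measured 2397, 2123, 1179, 2390, and 2053 and N2 106, 58.6, 60, 101, and 81.4. The strains were far apart on every array, and the log2 ratio was 4.62 (standard error 0.24, adjusted p = 2e-07). Its second element read only 0.58 (adjusted p = 0.08), so the elements of this gene disagreed. chk-1, a kinase of the DNA damage checkpoint, had 1185, 1821, 709, 1471, and 1571 in CB4856 and 176, 175, 137, 177, and 211 in N2. The N2 level was nearly constant, and the log2 ratio was 2.89 (standard error 0.15, adjusted p = 2e-07). ife-5, for a germline member of the family that binds the mRNA cap to start translation, read 653, 1210, 529, 741, and 1070 in CB4856 against 232, 219, 70.8, 86.7, and 88.3 in N2. The strains were apart on all arrays, least so on replicate 1, at 2.72 on the log2 scale (standard error 0.34, adjusted p = 0.0004).

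F-box and Skp1-related genes were found among the highest as well. fbxa-113 on V had 540, 564, 296, 530, and 440 in CB4856 and 107, 111, 70.5, 74.5, and 70.5 in N2, a log2 ratio of 2.47 with a standard error of 0.09 (adjusted p = 3e-08). Its ratios varied little, between 2.07 and 2.83 on the 5 arrays. skr-11, lips-16, and T16H12.1, with log2 ratios of 2.69, 2.15, and 2.59, are annotated as pseudogenes in N2. Their elements nevertheless gave signal above background in CB4856 on 5 of 5 arrays. N2 was above background on 5 arrays too for skr-11 and lips-16, and on 2 for T16H12.1. C38D9.2 (2.96), C34D4.10 (2.42), B0281.5 (2.36), Y43F4A.3 (2.26), and F13B6.1 (2.23) were also higher at adjusted p values from 1.4e-06 to 0.001. F41F3.3 and C02E7.6 followed each other across arrays, with ratios of 4.46 and 4.08 on replicate 2 but 0.64 and 0.93 on replicate 4. Neither passed with the t3 arrays alone, and the collagen gene col-129 (log2 ratio 2.10, adjusted p = 0.037) also lost its call there and without replicate 2, 4, or 5. With those 3 genes and spp-9 set aside, the other 26 of the 30 genes kept their call in that smaller fit.

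**Figure D2:**
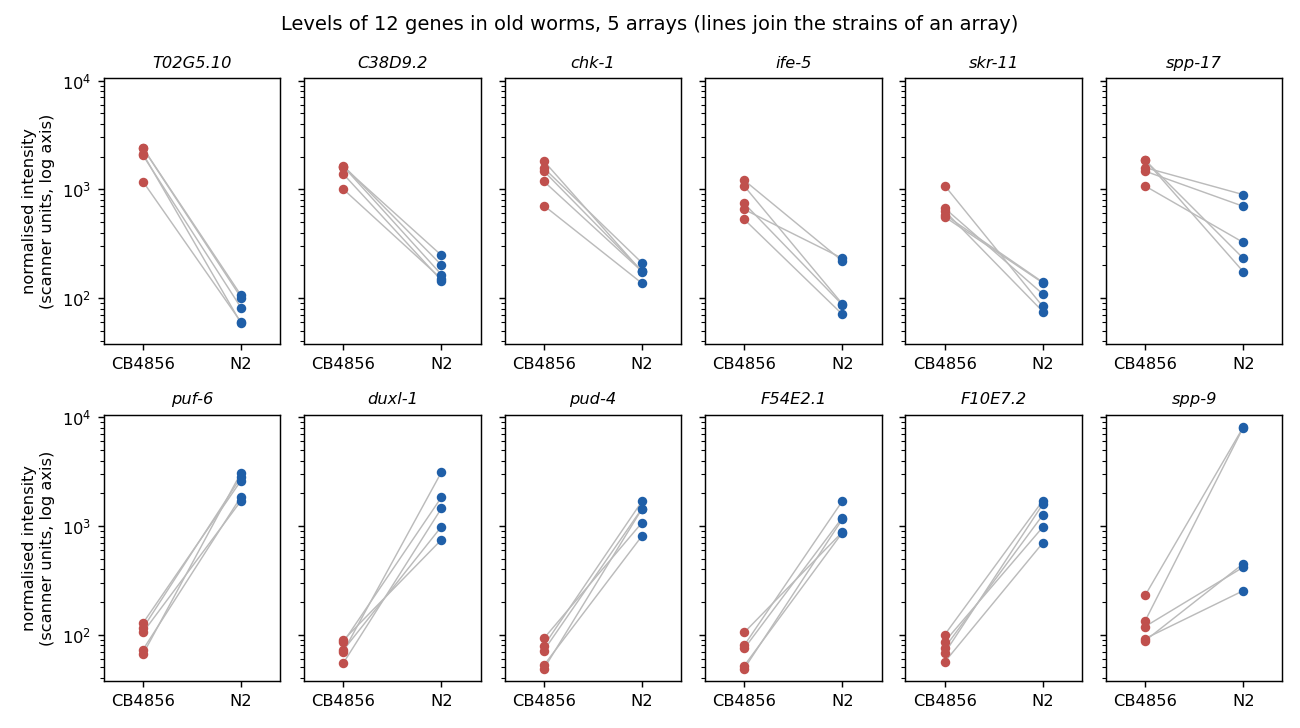
Normalized intensity on a log axis for 12 genes in CB4856 (left) and N2 (right), with a line joining the strains of each of the 5 t3 arrays. Lines of a gene run the same way on every array, and for spp-9 the N2 points fall into 2 separate levels.

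Adaptor genes of cullin ubiquitin ligases, which pick the proteins to be marked for degradation, were often lower in CB4856. In the MATH and BTB-MATH list, 44 of 151 elements (29.1%) were lower and 1 was higher (math-45, log2 ratio 0.61, lost without replicate 2, 3, 4, or 5), beside 3.75% and 2.44% over all elements. The list median was -0.21. bath-27 was lower on both elements, at -2.33 and -2.17 (adjusted p = 5.9e-06 and 5.5e-07). On its first element it measured 220, 127, 140, 130, and 135 in CB4856 against 1196, 933, 448, 728, and 623 in N2, so both strains were clearly measured and did not overlap. The second element of bath-28 gave -2.38 with both strains above background (adjusted p = 4e-08). bath-14, annotated as a pseudogene, had 427, 176, 76, 487, and 117 in CB4856 and 1121, 476, 222, 1015, and 282 in N2. Its level varied several-fold between arrays in both strains, yet its ratio stayed between -1.55 and -1.06. Leaving out 1 array at a time kept 28 (without replicate 4) to 46 lower calls in this list, and the t3 arrays alone gave 21.

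F-box genes, whose products link targets to the Skp1 and cullin core, went both ways. Of 433 elements, 68 (15.7%) were lower and 18 (4.16%) higher, beside 3.75% and 2.44% over all elements, with a median of -0.08. fbxa-64 was lower on both elements, at -1.72 and -1.42 (adjusted p = 0.00037 and 0.0032). fbxa-210 read 919, 601, 463, 519, and 566 in CB4856 and 1531, 1721, 893, 1201, and 1154 in N2 (log2 ratio -1.09, standard error 0.11, adjusted p = 5.2e-05). By contrast fbxa-24 on II, beside the lowered F54D10.7, had 372, 393, 1621, 470, and 351 in CB4856 and 186, 182, 780, 173, and 115 in N2. Both strains were bright on replicate 3, and its ratios lay between 1.00 and 1.61 (log2 ratio 1.25, standard error 0.12, adjusted p = 2.9e-05). In the core itself, 6 of 55 elements (10.9%) were lower and 3 (5.45%) higher. skr-5 (at least 1.87-fold lower, adjusted p = 0.0059), 1 element of skr-4 (-1.62, adjusted p = 0.00096), and 1 of cul-2 (-1.11, adjusted p = 0.0092) were low, while the pseudogene skr-11 was high. The elements of these genes disagreed, since the other of skr-4 read -0.66 without a call and the 5 others of cul-2, none called, reached 0.11. The F-box lower count was 40 (without replicate 4) to 77 with 1 array left out, and 20 with the t3 arrays alone. Without replicate 2 or 4 the F-box list had 11 higher calls and the core 3 lower ones, and without replicate 3 the core had 11 lower. Members of these families share sequence, and cross-hybridization was not tested.

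Genes of the muscle apparatus were called in 1 direction. Of 104 elements, 18 (17.3%) were higher in CB4856 and 0 lower, beside 2.44% and 3.75% over all elements. The list median was 0.15. At an unadjusted p under 0.05, 37 were higher and 3 lower. The linear model of the methods, taken after Benjamini-Hochberg adjustment, called none of the list. It was fitted to single channels without pairing the strains of an array. The study called at an unadjusted p under 0.01, at which this list was not counted. clik-1, a muscle protein with calponin-like repeats, measured 580, 1475, 1375, 981, and 953 in CB4856 against 329, 251, 493, 459, and 439 in N2. CB4856 lay above N2 throughout, most of all on replicate 2 (log2 ratio 1.39, standard error 0.2, adjusted p = 0.0012). unc-54, the main myosin heavy chain of body wall muscle, read 746, 2247, 1231, 1599, and 1327 in CB4856 and 512, 291, 721, 1042, and 538 in N2. Its ratio was 2.95 on replicate 2 and 0.54 to 1.30 on the others (log2 ratio 1.18, standard error 0.28, adjusted p = 0.027), and the call was lost without replicate 2, 4, or 5. An element of the light chain gene mlc-3 (0.89, adjusted p = 0.007) and dim-1 (0.73, adjusted p = 0.0067), needed for ordered muscle filaments, kept their calls with any array left out, but the second element of mlc-3 read -0.01. The array medians of the list were -0.00, 0.45, 0.20, 0.14, and 0.12 on replicates 1 to 5. Without replicate 2 there were 9 higher calls, without replicate 4 or 5 there were 6, and with the t3 arrays alone there were 0.

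Cuticle collagens, the structural proteins of the outer coat, formed the other large group higher in CB4856. Of 170 elements, 23 (13.5%) were higher and 1 lower, beside 2.44% and 3.75% over all elements. The lower call was col-183, at least 1.41-fold, lost without replicate 1, 2, 4, or 5. The list median was 0.35. col-94 measured 13449, 23860, 8264, 17399, and 10682 in CB4856, against 5699, 3104, 3610, 7515, and 5554 in N2. It was a bright element whose strains did not overlap, although replicate 2 gave 2.94 and the others 0.94 to 1.24 (log2 ratio 1.48, standard error 0.22, adjusted p = 0.0013). col-154 read 14437, 23112, 15941, 22121, and 14474 in CB4856 and 10766, 7254, 5802, 11832, and 9108 in N2 (log2 ratio 1.02, standard error 0.16, adjusted p = 0.0021). rol-6, known for mutants that roll, had a log2 ratio of 1.57 (adjusted p = 0.013) that was lost without replicate 5. Basement membrane genes held 4 higher elements of 53 (7.55%). Of these, 2 belong to unc-52 (perlecan), which is also in the muscle list, beside him-4 and sax-7. The calls of sax-7 and of 1 of the unc-52 elements were lost without replicate 2, 4, or 5. Array medians of the collagens were 0.12, 0.59, 0.28, 0.18, and 0.06. Their higher calls numbered 15 without replicate 2, 12 without replicate 5, and 0 with the t3 arrays alone.

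**Figure D3:**
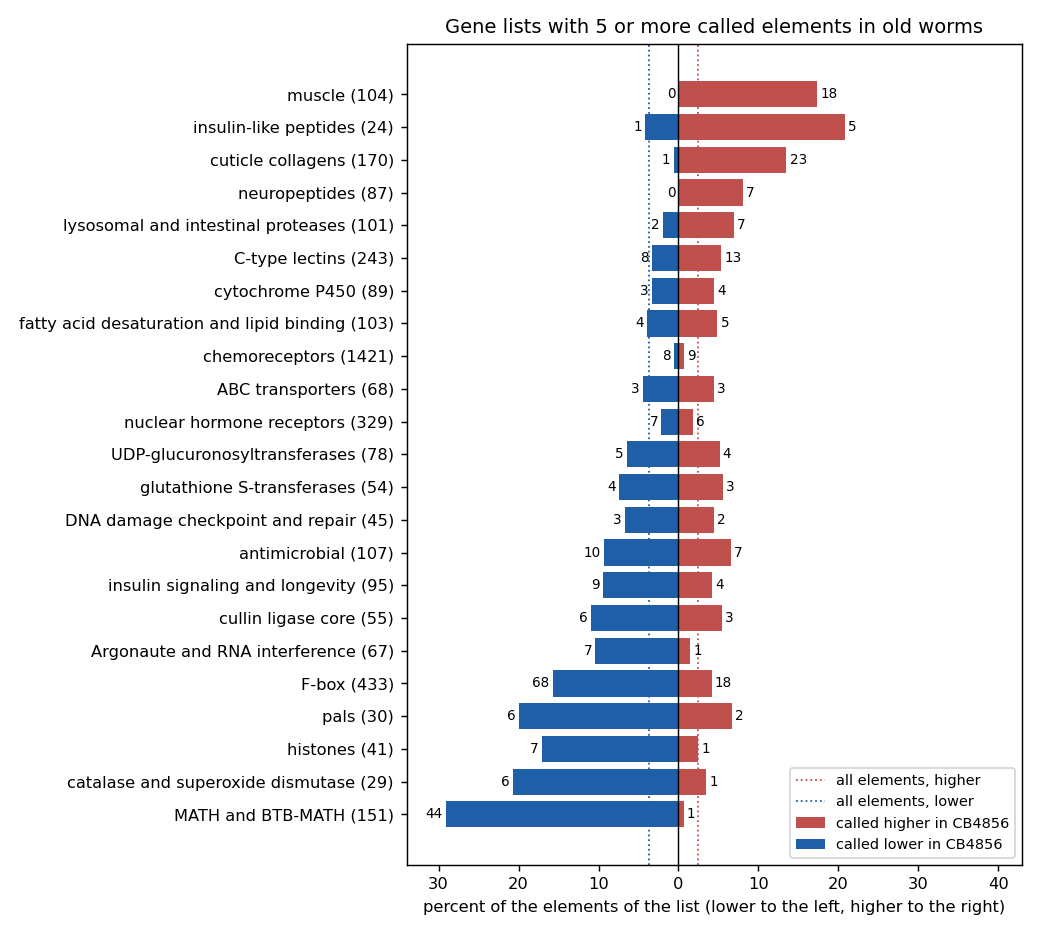
Percent of the elements of each gene list called lower (to the left) and higher (to the right) in CB4856 in old worms, for lists with 5 or more calls. MATH and BTB-MATH genes reach 29.1% lower, muscle genes 17.3% and cuticle collagens 13.5% higher, beside 3.75% lower and 2.44% higher over all elements.

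Secreted signals differed in both directions. Of 24 elements for insulin-like peptides, the ligands of the DAF-2 receptor, 5 (20.8%) were higher in CB4856 and 1 lower. ins-23 measured 275, 310, 256, 301, and 230 in CB4856 and 132, 114, 163, 116, and 127 in N2. The strains did not overlap (log2 ratio 1.07, standard error 0.11, adjusted p = 0.0001). Its neighbor ins-22 on chromosome III read 194, 309, 143, 327, and 263 in CB4856 and 135, 176, 116, 136, and 98.2 in N2. The ranges overlapped here, since replicate 3 was dim in CB4856, yet CB4856 exceeded N2 on each array (log2 ratio 0.89, standard error 0.13, adjusted p = 0.0016). ins-4 was higher by 0.59 (adjusted p = 0.0074), ins-31 by 0.85 (adjusted p = 0.025), and ins-1 by 0.33 (adjusted p = 0.036). Without replicate 2, 3, or 5 the list kept 3 higher calls, and ins-31 and ins-1 were then not called. ins-7, a ligand that activates the pathway, was lower at -1.39 (adjusted p = 0.04), but its call was lost without replicate 1, 2, 4, or 5. Further along the same pathway and its targets, 4 of 95 elements (4.21%) were higher and 9 (9.47%) lower, beside 2.44% and 3.75% over all elements. The lower calls were 3 without replicate 4, 4 without replicate 1, 2, or 5, and 14 without replicate 3. tcer-1, a transcription elongation factor needed for the long life of germline-less worms, was lower on 2 of 4 elements, at -1.09 and, lost without replicate 1, 2, 4, or 5, at -1.07. skn-1, for the Nrf-type stress factor, was lower on 2 of its 8 elements, at -0.91 and -0.88, with ratios of 0.08 and -0.19 on replicate 3 and calls that were lost without replicate 1, 2, 4, or 5. The elements of tcer-1 without a call reached 0.12 and those of skn-1 lay between -1.07 and 0.11.

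Of 87 neuropeptide elements, 7 (8.05%) were higher and 0 lower, beside 2.44% and 3.75% over all elements. At an unadjusted p under 0.05, 19 were higher and 6 lower. The linear model of the methods called none after Benjamini-Hochberg adjustment, and its count at an unadjusted p under 0.01 was not taken. Median centering gave 2 in each direction, and the higher calls were 11 without replicate 1, 4 without replicate 2 or 4, and 2 without replicate 5. nlp-71 measured 181, 369, 265, 226, and 174 in CB4856 and 129, 158, 156, 112, and 88.6 in N2 (log2 ratio 0.91, standard error 0.11, adjusted p = 0.0002). Every CB4856 level exceeded every N2 level for this neuropeptide-like gene. nlp-8 was higher by 0.99 (standard error 0.14, adjusted p = 0.0011). Among 84 elements for synaptic genes the 1 call was unc-38, a subunit of the acetylcholine receptor of muscle, at -1.14 (adjusted p = 0.00074), with CB4856 above background on 2 arrays.

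Genes of defense against microbes fell on both sides, 7 higher (6.54%) and 10 lower (9.35%) of 107 elements, beside 2.44% and 3.75% over all elements. lys-7, a lysozyme gene, measured 1015, 1826, 2212, 3973, and 2733 in CB4856 against 8905, 8893, 3285, 12822, and 8238 in N2. It was lower in CB4856 on all arrays, least on replicate 3, though the ranges of the strains overlapped (log2 ratio -1.89, standard error 0.29, adjusted p = 0.0019), and N2 had saturated pixels on 1 array. spp-17, another saposin-like gene, went the other way, with 1073, 1856, 1857, 1469, and 1584 in CB4856 and 325, 232, 175, 698, and 894 in N2. The strains did not overlap (log2 ratio 1.92, standard error 0.26, adjusted p = 0.00084). lys-3 was higher by 1.12 (adjusted p = 0.0081), with a ratio of -0.12 on replicate 3 and no call without replicate 4. fipr-22, of the fungus-induced protein family, was at least 2.07-fold lower on 1 element (adjusted p = 9.9e-05), and the caenacin cnc-1 was lower at -1.50 (adjusted p = 0.0025). Without replicate 3 the list had 5 higher and 24 lower calls, without replicate 1 it had 6 lower, and without replicate 4 or 5 it had 3 higher. C-type lectins, proteins with sugar-binding domains, had 13 higher (5.35%) and 8 lower (3.29%) of 243, so their lower share was near that over all elements. They had 5 higher without replicate 2 or 4, 13 lower without replicate 3, and 3 lower without replicate 4. Their extremes were clec-190 (1.70, lost without replicate 4), clec-71 (1.68, adjusted p = 0.00018), clec-147 (-1.73, adjusted p = 0.0038), and clec-41 (-1.56 on 1 of its elements). Of 30 pals elements, 6 (20%) were lower and 2 (6.67%) higher. pals-22, which holds down the intracellular pathogen response, was lower at -0.98 (adjusted p = 0.0041). pals-23 was lower by at least 2.37-fold and at least 1.54-fold on 2 of its 4 elements (adjusted p = 0.00014 and 0.00012). An element of pals-23 without a call read -0.08. Without replicate 2 or 4 the list had 4 lower calls and 1 higher.

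In the list of catalases, superoxide dismutases, and related antioxidant enzymes, 6 of 29 elements (20.7%) were lower and 1 was higher. Over all elements the shares were 3.75% lower and 2.44% higher. The higher call was trxr-1 (0.34), lost without replicate 1, 2, 4, or 5. gpx-1, a glutathione peroxidase gene, read 229, 214, 188, 195, and 198 in CB4856 against 519, 1014, 488, 585, and 646 in N2. CB4856 varied little and lay below every N2 level (log2 ratio -1.60, standard error 0.17, adjusted p = 0.0001). The catalase gene ctl-1 was lower by -0.86 (adjusted p = 0.0069), and ctl-3 on 3 elements at -1.09, -1.01, and -0.94, of which the last 2 were not called without replicate 1, 2, 4, or 5. Those 3 elements were lowest on replicates 1 and 2, between -1.80 and -1.51, while 2 of them stood at -0.08 and -0.07 on replicate 3. The genes share sequence, so cross-hybridization was not told apart. Without replicate 2, 4, or 5 the list had 3 lower calls.

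Enzymes that conjugate foreign compounds held single large differences in either direction. Of 78 UDP-glucuronosyltransferase elements, 4 (5.13%) were higher and 5 (6.41%) lower, with 3 lower without replicate 2, 4, or 5. ugt-28 was at least 2.94-fold lower (adjusted p = 7.8e-06), ugt-31 was lower at -1.82 (adjusted p = 0.00012), and ugt-47 higher at 1.84 (adjusted p = 0.00014). Of 54 glutathione S-transferase elements, 3 (5.56%) were higher and 4 (7.41%) lower, but 1 and 1 without replicate 4 and 2 and 1 without replicate 2. gst-24 measured 304, 382, 452, 496, and 308 in CB4856 and 2043, 2788, 786, 811, and 814 in N2. N2 was again brightest on replicates 1 and 2, as for spp-9 and spp-12 (log2 ratio -1.63, standard error 0.32, adjusted p = 0.0097). Cytochrome P450 genes, with 4.49% higher and 3.37% lower of 89 elements, and ABC transporters, with 4.41% in each direction of 68, were near the 2.44% and 3.75% over all elements.

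In metabolism, all 3 calls among 66 elements for glycolysis, the TCA cycle, and the glyoxylate cycle were elements of icl-1, the glyoxylate cycle enzyme. They were lower at -0.97, -0.94, and -0.88, and only the second kept its call with each array left out. On it icl-1 read 365, 592, 410, 425, and 386 in CB4856 and 755, 838, 714, 901, and 817 in N2, without overlap (standard error 0.17, adjusted p = 0.0052). Of 103 elements for fatty acid desaturation and lipid binding, 5 (4.85%) were higher and 4 (3.88%) lower, beside 2.44% and 3.75% over all elements. fat-5, a fatty acid desaturase, was lower at -1.74 (adjusted p = 0.014, lost without replicate 2), whereas fat-7 of the same enzyme family was higher by 0.94 (adjusted p = 0.03, lost without replicate 2, 3, 4, or 5). sams-5, an S-adenosylmethionine synthetase gene, had 269, 191, 144, 213, and 204 in CB4856 and 698, 931, 352, 629, and 579 in N2. Every CB4856 level was below every N2 level (log2 ratio -1.62, standard error 0.16, adjusted p = 6e-05), while its other element read -0.37 without a call. Lysosomal and intestinal proteases were higher on 7 (6.93%) and lower on 2 (1.98%) of 101 elements, with cpr-5 and cpr-4 at 1.28 and 1.17 (adjusted p = 0.041 and 0.031). Without replicate 2, 4, or 5 the higher calls were 2, and neither of these genes was among them.

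Genes of RNA interference were lower on 7 of 67 elements (10.4%) and higher on 1 (wago-11, at least 1.14-fold), beside 3.75% and 2.44% over all elements. sago-2, an Argonaute gene of the secondary step, measured 184, 154, 190, 150, and 170 in CB4856 and 749, 467, 456, 701, and 530 in N2. The strains did not overlap (log2 ratio -1.80, standard error 0.25, adjusted p = 0.00084). eri-7, a helicase gene, was lower at -0.64 (standard error 0.09, adjusted p = 0.00091), and the pseudogene prg-2 at -1.11 (adjusted p = 0.038, lost without replicate 1, 2, 4, or 5), with a ratio of 0.13 on replicate 3 and 0.04 on its other element. Histone genes had 7 of 41 elements (17.1%) lower and 1 higher (his-73, 0.47, lost without replicate 4 or 5), with a median of -0.29. his-35, an H2A gene, read 1362, 1633, 2407, 1613, and 1844 in CB4856 and 3071, 5448, 2773, 2393, and 3039 in N2 (log2 ratio -0.86, standard error 0.19, adjusted p = 0.016). N2 exceeded CB4856 on each array and stood highest on replicate 2, and without that array no histone element was called lower by limma, while 21 had been lower at an unadjusted p under 0.05 with all arrays. Without replicate 1 or 5 there were 3 lower calls and without replicate 4 there were 2, and that of his-35 was lost without replicate 2, 4, or 5. In the DNA damage list, 2 of 45 elements (4.44%) were higher and 3 (6.67%) lower. There xpc-1, for a damage recognition factor, was lower at -1.11 (adjusted p = 0.012, lost without replicate 2 or 4), and egl-1, which starts programmed cell death, at -0.64 (adjusted p = 0.0031). brc-1 was lower at -0.67 and rad-50 higher by 0.50, beside chk-1, and both calls were lost without replicate 2, 4, or 5.

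Each of the tissue markers with an element on the array was above background in both strains on at least 1 array of old worms, except 1 sperm element for gsp-3, which was on none. In body wall muscle, unc-54 and unc-15 (lost without replicate 2, 4, or 5) were higher in CB4856 while myo-3 (0.73) and unc-22 (0.25) missed the threshold, and log2 ratios were 0.25 to 1.18 for all 4. The 3 pharynx markers lay between 0.36 and 0.95, with 0 called by limma, although all 3 had an unadjusted p under 0.05. The 7 intestinal elements ranged from -0.04 to 0.32, the 3 germline elements from -0.12 to 0.15, the 4 oocyte elements from 0.04 to 0.23, and the 5 sperm elements from -0.50 to 0.16, none of them called or under an unadjusted p of 0.05. Among them vit-2 (-0.04) and vit-5 (0.04) had saturated pixels on 3 to 4 arrays in each strain, so ratios near 0 do not show that the strains were alike there. Of the 7 elements for neuronal markers none was called either, between -0.70 and 0.33, and 1 of them, for snb-1, had an unadjusted p under 0.05 (0.0066). In the hypodermis rol-6 was called, and the other 3 markers lay between -0.67 and 0.70 without a call. Of these, dpy-7 (0.50) and wrt-10 (-0.67) went opposite ways, each at an unadjusted limma p under 0.05. The part of tissue makeup in the muscle and collagen differences was not tested.

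To see which differences depended on age, the strain difference at t3 was set against the mean of t1 and t2 in the same fit. It differed for 104 elements (0.462%), 40 of them more positive and 64 more negative at t3. The comparison shares its t3 arrays with the calls above, and 95 of the 104 were also called at t3. Of all 1391 elements called at t3, 181 were also called in the same direction at t1 and 221 at t2, whereas 2 were called in the opposite direction at a younger age. A further 1082 were called at t3 and not at the younger ages, but the test of the difference itself passed for far fewer, as given by the 104.

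Among genes that both strains expressed above background at all ages, spp-17 moved most. Its log2 ratio was 0.17 at t1, -0.65 at t2, and 1.92 at t3, a difference of 2.16 (adjusted p = 0.011). F53F1.4 had -0.43, -0.74, and 1.39, a difference of 1.97 (adjusted p = 0.015, lost without replicate 2). The neighboring collagen genes col-144 and col-145 stood at -0.17 and -0.11 in juveniles, at -0.37 and -0.09 in reproductive worms, and at 1.19 and 1.45 in old worms, with differences of 1.46 and 1.55 (adjusted p = 0.035 and 0.039). Both calls were lost without replicate 2, 3, or 5, and without background correction the differences were 1.00 and 1.13 and not called. The collagen genes col-125 and col-155 differed by 1.14 and 0.74 (adjusted p = 0.036 and 0.039), and the neuropeptide-like gene nlp-8 by 0.95 (adjusted p = 0.035), and all 3 calls were lost without replicate 2, 3, or 4. F40G9.5 on III went the other way, with 0.32, -0.12, and -1.33, a difference of -1.43 (adjusted p = 0.031, lost without replicate 2, 3, 4, or 5).

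Some genes called at t3 were hardly detected before. ins-23 was above background on 0 arrays of either strain at t1 and t2 and on all 5 arrays of both at t3, with a difference of 0.97 (adjusted p = 0.0097). ins-22 behaved similarly, above background in CB4856 on 1 array at t1 and 1 at t2, and in N2 on 3 and 1 (difference 0.98, adjusted p = 0.022, lost without replicate 2, 4, or 5). fbxa-24, at 0.00 at t1 and 0.12 at t2 before its 1.25 at t3, was above background on at most 1 array per strain at the younger ages (difference 1.20, adjusted p = 0.0033). For such genes a ratio near 0 in younger worms holds no level.

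In the negative direction, icmt-1, named for an enzyme that methylates prenylated proteins, had ratios of 0.15, 0.22, and -2.02, a difference of -2.21 (adjusted p = 0.0025). It was above background on all arrays at t1 and t3, but on 2 of 4 for CB4856 and 1 of 4 for N2 at t2. It lies on chromosome I from 4901918 to 4903264, beside unc-38 (4897620 to 4900974), whose ratio differed by -1.11 (adjusted p = 0.026, lost without replicate 1, 2, or 4). sams-5 had -0.43, 0.51, and -1.62, a difference of -1.65 (adjusted p = 0.0033), and it too was dim at t2, above background on 2 arrays for CB4856 and 1 for N2. spp-9 was above background in neither strain at t1 or t2 and in both on 5 arrays at t3. fbxb-97 was detected in N2 on none of the t1 arrays, on 3 of the t2 arrays, and on all 5 t3 arrays, and in CB4856 on none, with a t3 difference of at least 3.61-fold (adjusted p = 1e-07). F54D10.7 and F40G9.6 showed the same order of detection in N2. In contrast gst-27 was most unlike between strains in juveniles, with -4.0 at t1, -2.60 at t2, and -1.17 at t3 (difference 2.13, adjusted p = 0.035, lost without replicate 1, 2, or 5), and CB4856 was detected on 4 of 5, 1 of 4, and 2 of 5 arrays at these ages. Its call at t3 was lost without replicate 2, 3, or 4, and its ratio was 0.11 on replicate 5. R03H10.6 had 3.17, 1.14, and 0.29, the last without a call (difference -1.87, adjusted p = 0.00075), and N2 was detected on 0 of 5 arrays of juveniles. Of the 16 genes with the largest differences of this kind, 8 kept their call without replicate 2, 11 without replicate 5, 12 without replicate 4, 13 without replicate 3, and 15 without replicate 1.

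**Figure D4:**
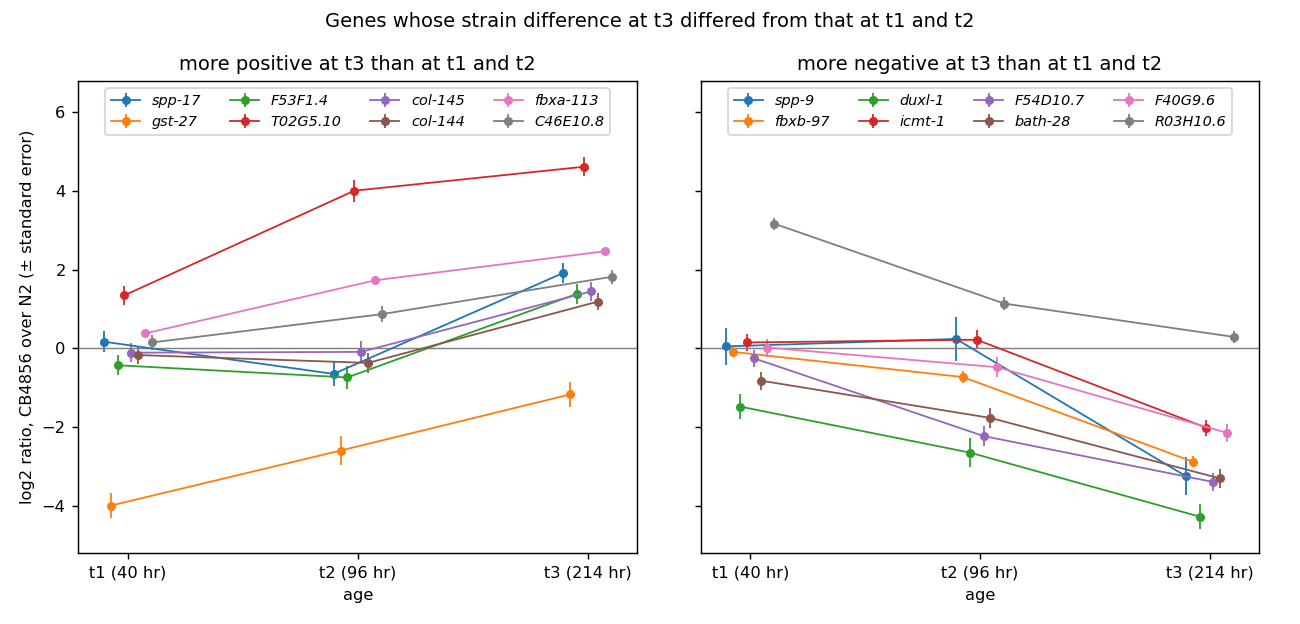
Log2 ratio of CB4856 over N2 (vertical axis, with standard error) at t1, t2, and t3 for the 8 genes whose ratio at t3 was most above (left) and the 8 whose ratio was most below (right) the mean of the younger ages. spp-17 climbs to 1.92 and spp-9 drops to -3.25 at t3, while gst-27 and R03H10.6 approach 0 with age.

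Called genes were unevenly placed. Each chromosome's span of genes was cut into 3 equal parts, of which the outer ones are called arms here. On the arms 2.67% of 13187 elements were higher and 4.61% lower, whereas in the middle parts 2.05% and 2.35% of 8139 were. Among elements above background in either strain on at least 3 t3 arrays, the shares were 4.25% and 7.64% on the arms and 2.91% and 3.4% in the middle. An element can enter that set through the strain in which it is high alone, so these shares are not separate support for the order. Chromosome II held 104 higher and 234 lower elements, and its left arm alone 45 and 165 of 1376, or 12% lower. That arm holds many F-box and MATH genes, but among its 1119 other elements 94 (8.4%) were lower too, beside 3.31% of such elements over all chromosomes. The left arm of III had 58 of 861 (6.74%) lower. Chromosome V, by contrast, had 159 higher and 148 lower. Of the 51 placed elements lower by more than 2 on the log2 scale, 28 were on II and 9 on V. Of the 15 higher by more than 2, 3 were on II and 6 on V. Chromosomes II and V held 3786 and 5155 of all 21326 placed elements.

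**Figure D5:**
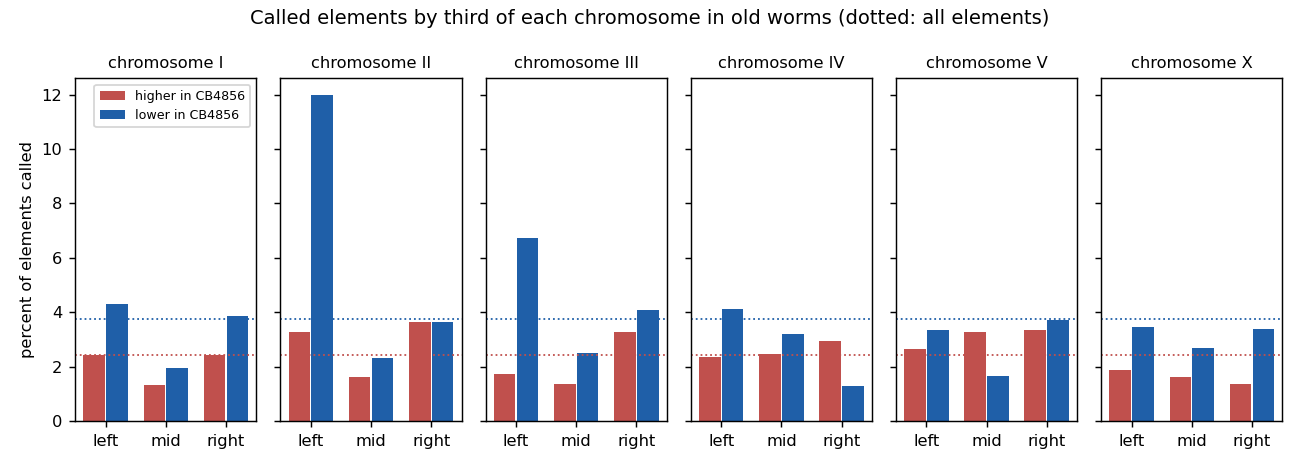
Percent of elements called higher and lower in CB4856 (vertical axis) in the left, middle, and right part of each chromosome, with dotted lines for all elements. The left part of chromosome II reaches 12% lower, the highest value in the plot.

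Along the chromosomes 17855 measured genes were put in order, and a gene counted as called where at least 1 of its elements was. This gave 503 genes higher and 735 lower in CB4856. Of these 1238 genes, 228 (18.4%) had a neighbor called in the same direction, a share for which no expectation was computed. There were 17 runs of 3 or more neighboring measured genes called in 1 direction, 16 of them lower in CB4856 and 1 higher. The longest run on II, from 1913605 to 1928734, held the 9 genes bath-11, bath-4, bath-6, bath-7, bath-2, F52C6.4, F52C6.3, F52C6.2, and bath-22. A run of 6, from 1817271 to 1833522, went from fbxb-10 over fbxa-3, fbxc-19, math-41, and math-40 to math-39. A run of 5, from 3895055 to 3904844, went from F53C3.7 over F53C3.6 and others to F53C3.3. Not every element of these genes was called. math-41 and F53C3.6 were each called on 1 of 3 elements, bath-6 on 2 of 3, and fbxb-10 and bath-4 on 1 of 2. Both elements of math-40 and of math-39 were called. On chromosome I fipr-23, fipr-22, and fipr-24 were lower together, and at the left end of III F40G9.6, F40G9.5, btb-1, and mxl-2. The run that was higher in CB4856 lay on V from 9152321 to 9163005 and held B0222.5, col-144, and col-145. In these runs bath-4, fipr-24, fbxc-19, and math-39 were each called on all 5 arrays together but not without replicate 2 or 4. For fbxc-19 neither strain was above background on any t3 array, so its ratio of -0.30 holds no level. Related neighbors may share probe sequence, and their calls are then not separate measurements.

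Of 2143 genes with more than 1 element, 322 were called on at least 1. In 77 of them at least 2 elements agreed in direction, in 245 a single element was called, and in 0 were elements called in opposite directions. Where elements disagreed, as for T02G5.10, a difference of the whole transcript was not shown.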

How the data were processed

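RNA of both strains was measured on 14 arrays with 2 dyes, 5 of them at t3. For each spot and dye, the authors deposited the mean spot intensity and the median of the local background, which their scanner software (ScanArray Express) gave in scanner units without normalization. The deposited percent of saturated pixels per spot marked saturation. A further deposited table holds log2 ratios that the authors' notes say were normalized with limma, and which ran as N2 over CB4856. It was turned around and used for 1 alternative.

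Background was corrected here by normexp with an offset of 50, and dyes were normalized within arrays by loess, in limma 3.58.1 under R 4.3.3 (random blocks through statmod 1.5.0). The quantile step between arrays acts on the mean of the dyes and leaves ratios as they are. A single limma fit took in the 14 arrays, with 1 coefficient per age and 1 for the dye orientation. It left 10 residual degrees of freedom per element, so the younger ages helped to set the spread at t3. The contrast of t3 with the mean of t1 and t2 came from the same fit. Over 22490 elements, p-values were adjusted after Benjamini-Hochberg and called under 0.05, and a gene was counted once by name. An element was above background where its mean exceeded the background median by 2 SD. A script checked the fit on simulated data.

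The genes named are the 15 elements with the largest absolute log2 ratio in each direction among those called with 1 direction on all 5 t3 arrays, the 8 with the largest contrast in each direction, called members of 44 gene lists, and members of runs of neighbors. F33H2.3, tyms-1, bigr-1, and the genes detected in CB4856 alone were added after their values were seen. Members and lists were chosen with earlier results of these data known. No sequence of a probe or gene was at hand, so none is shown. The alternatives were other background corrections, normalizations, filters, blocks, thresholds, and models, the authors' table, and each t3 array left out in turn.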

Additional observations from a re-analysis of the deposited data

Results flagged for a closer look

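None of the 40 elements tested had a t3 array so far from the other 4 that Dixon's criterion for 5 values was passed. The strain difference of 16 genes at t3 differed from the mean of t1 and t2 by the limma test of that contrast, and these are the values on the log2 scale. Above the younger ages were spp-17 by 2.16, gst-27 by 2.13, F53F1.4 by 1.97, T02G5.10 by 1.94, col-145 by 1.55, col-144 by 1.46, fbxa-113 by 1.41, and C46E10.8 by 1.31. T02G5.10 was above background in N2 on 0 of 5 arrays at t1, fbxa-113 likewise, and C46E10.8 in either strain on at most 1 array at each younger age. Below the younger ages were spp-9 with -3.39, fbxb-97 with -2.47, duxl-1 with -2.22, icmt-1 with -2.21, F54D10.7 with -2.16, bath-28 with -2.01, F40G9.6 with -1.93, and R03H10.6 with -1.87. CB4856 was above background on no array at t1 and t2 for duxl-1, F54D10.7, bath-28, and F40G9.6, and at no age for fbxb-97, so the size of their contrast depends on the background.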

How the results depend on the processing

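Beside 548 higher and 843 lower elements at t3 and 104 for the contrast with the younger ages, array quality weights gave 918, 1463, and 157, and an adjusted p under 0.01 gave 174, 330, and 35. Only spots of the most common scanner flag code gave 217, 354, and 1 (7470 elements kept), and only spots of flag code 3 gave 63, 73, and 4 (4755 kept). The flag codes are not explained in the sources used here. At t3, quantile normalization of single channels gave 354 and 415, and the t3 arrays alone 82 and 186. The linear model of the methods gave 51 and 149 after Benjamini-Hochberg adjustment, and 308 higher and 663 lower at an unadjusted p under 0.01. Median centering gave 378 and 1115. With 1 t3 array left out, higher calls ranged from 191 to 665, lower calls from 358 to 1141, and the contrast from 47 to 148. Without replicate 2 the contrast gave 48, and without replicate 4, 47. Background correction, the dye term, the dim filter, and the authors' table each kept all 3 counts within 1.5 times. With scan session as a random block the consensus correlation was -2.92e-06. That fit therefore repeated the main fit and could not test an effect of session. Array weights, single channel quantiles, flag code 3, and the random block for array numbers were chosen after seeing the data.

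Whether array numbers in the labels pair the samples was not settled. Deviations at t3 correlated at 0.078 (replicates 1 and 4) and -0.173 (replicates 2 and 5) within a range of -0.57 to 0.078 over all pairs. Same numbers across ages correlated at -0.293 to 0.332, so that not every pair passed 0.1. Deviations were taken from the mean of the arrays of an age, which lowers their correlation within an age. Unpaired arrays are then not expected at 0, and passing 0.1 or not cannot decide the pairing at t3. A replicate block gave 496 higher, 756 lower, and 102 for the contrast. Arrays of the same number averaged gave 315, 799, and 65, and the same numbers as a random block 287, 481, and 47 (consensus correlation 0.223).

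Of the 1391 elements, 220 were lower with CB4856 above background on no t3 array and 52 higher with N2 above background on none. For 9 of these, 5 higher and 4 lower, neither strain was above background on any t3 array, so they have no bound. The sizes of the others are bounds. Background was 163 to 176 under median spots of 201 to 303, and dim genes were measured poorly. All values are limited by the small number of arrays.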

Other observations

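Several gene lists held few calls in old worms. Among 1421 chemoreceptor elements 9 (0.633%) were higher in CB4856 and 8 (0.563%) lower, but only 45 of them were above background, so most gave no level to compare. Among 329 nuclear hormone receptor elements, 150 of them above background, 6 (1.82%) were higher and 7 (2.13%) lower, near the 2.44% and 3.75% over all elements. Without replicate 4 these counts were 2 and 3 for chemoreceptors and 1 and 0 for nuclear hormone receptors. The nuclear hormone receptor gene nhr-182 had ratios of 0.76, 0.75, 0.57, 0.70, and 0.72 on replicates 1 to 5 and was called in all 20 alternatives that gave it a value. No proteasome element of 35 was called by limma, against 3 higher and 0 lower at an unadjusted p under 0.05, and their ratios lay between -0.48 and 0.28. The 11 vitellogenin elements, for yolk proteins, gave 0 calls with 1 element in each direction at an unadjusted p under 0.05, over a range of -2.23 to 2.05. Several of them, vit-2 and vit-5 among these, had saturated pixels on 2 to 4 arrays in each strain. After Benjamini-Hochberg adjustment the linear model of the methods called none in either list. Array quality weights, leaving out replicate 3, and averaging arrays of the same number each called 1 vitellogenin element lower, the last also 1 proteasome element. Cytosolic ribosomal proteins had 2 of 71 higher (rps-9, 0.27, and rpl-26, 0.49, both lost without replicate 4), and mitochondrial ribosomal proteins 4 of 68 higher, none above 0.45, of which none was called without replicate 2 or without replicate 4. Of 12 small heat shock protein elements, hsp-12.3 was called, with 296, 376, 462, 393, and 333 in CB4856 and 177, 204, 220, 130, and 108 in N2 (log2 ratio 1.23, adjusted p = 0.015, lost without replicate 4 or 5). Of the transthyretin-related genes, 1 (2.04%) was higher and 3 (6.12%) lower of 49, and 11 were lower without replicate 3.

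Outside the lists, some well-measured genes changed their strain difference with age. F33H2.3 had log2 ratios of 0.55 at t1, 0.39 at t2, and -0.62 at t3 (difference -1.09, adjusted p = 0.0044), with both strains above background on every array. bigr-1 had 0.35, -0.34, and 1.23 (difference 1.22, adjusted p = 0.041, lost without replicate 1, 2, 4, or 5). tyms-1, the thymidylate synthase gene whose enzyme FUDR inhibits, had 0.32, 0.24, and -0.18 (difference -0.47, adjusted p = 0.032, lost without replicate 2, 3, 4, or 5), and its difference at t3 alone was not called.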
